A study of Mus musculus with 11 samples.

Results

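The Toll-like receptors of mouse microglia, the resident macrophages of the brain, were followed across 4 groups of cells on 11 single-colour Agilent arrays. The family was taken as 10 genes chosen by name (Tlr1, Tlr2, Tlr3, Tlr4, Tlr5, Tlr6, Tlr7, Tlr8, Tlr9 and Tlr13). The choice was made with earlier results of these data known. Mouse Tlr11 and Tlr12 are not among them and are described with the other pattern recognition receptors. A probe could be matched to 9 of them, all 9 passed the filter on dim probes, and they are reported here among 19555 genes tested. Tlr7, an endosomal receptor for single-stranded RNA, was not analysed here. All cells came from C57BL/6N mice. NB_FACS (3 arrays) was freshly sorted microglia of newborn mice of both sexes (postnatal days 1 to 3), and A_FACS (2 arrays) was freshly sorted microglia of adult females aged 12 to 24 weeks. Both were gated on intermediate CD45 and high CX3CR1 after myelin removal. NB_Control (3 arrays) was microglia shaken off glial flask cultures of pooled newborn brains, grown on poly-L-ornithine and fed 20% L-929 conditioned medium (a source of M-CSF). By the paper's protocol the flasks were grown for weeks before shaking. The cells were then kept for 1 day in DMEM/F12 with serum. NB_Stim (3 arrays) was handled in the same way with human TGF-β1, IL-34 and CX3CL1, each at 100 ng/mL. Culture cannot be told apart from isolation by shaking or from the weeks in flasks, nor adult age from female sex. All brains were digested without a transcription inhibitor. Sorted cells were lysed straight after sorting, while cultured cells were lysed after their time in culture. The paper states that its freshly isolated profiles likely hold some changes made by isolation already. A rise or fall in culture is therefore relative to just-isolated cells, and the part of isolation was not tested.

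Toll-like receptors recognise conserved microbial molecules and, through adaptor proteins, switch on NF-κB and interferon regulatory factors. Tlr1, Tlr2, Tlr4, Tlr5 and Tlr6 sit mainly at the cell surface and bind lipopeptides, lipopolysaccharide or flagellin, while Tlr3, Tlr7, Tlr8, Tlr9 and Tlr13 read nucleic acids inside endosomes. In the brain they are best known from microglia, where they serve the response to infection and to tissue damage.

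On each array 66.8% to 80.5% of probes were well above background, and no spot was saturated. The arrays came from 2 slides, and slide 2 carried replicate 3 of NB_FACS, NB_Control and NB_Stim. The labelled cell type was checked on 14 microglial markers, of which 13 had a probe. Of these, 12 were above background on every newborn array and 13 on both adult arrays. Values are quantile normalised log2 intensities, and differences are on the same log2 scale. Adjusted p-values are from limma, and a gene is called at an adjusted p under 0.05. Intensities of different genes come from different probes and were not compared with each other. In a bulk sample fewer expressing cells cannot be told apart from less RNA per cell. The paper calls its sample numbers independent biological replicates, while the titles give only running numbers and name no animals or flasks. The p-values rest on the spread between arrays within groups, pooled over the 4 groups and moderated by limma.

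The 9 measured receptors were read by 12 probes of 46 to 55 bases. Tlr3 had 4 of these and every other receptor had 1. The first 30 bases of the Tlr3 probes are shown because these probes disagreed. Those of Tlr2, Tlr8 and Tlr13 are shown because the promoters of these genes follow. Each carries its gene's result alone, as do the probes of Tlr1, Tlr4, Tlr5, Tlr6 and Tlr9. No letters are capitalised in the probes.
Tlr3 probe MMXS39382: tatctgtctctggagtacaacaatatacag
Tlr3 probe MMXS35195: aatcacaatcgcgcaccaaaagaagataga
Tlr3 probe MMXS16348: gagagttaaatgactttcttacccatatta
Tlr3 probe MMXS14645: attgaggaagaaggagttaatcccgagctc
Tlr2 probe MMXS22969: ctgcaataaagtcctaggttctccacccag
Tlr8 probe MMXS30494: cttcaatgccaatactcaagtgtttaatgg
Tlr13 probe MMXS55609: agtaacccttcacctatgttcttgtaagta

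Promoters are shown for Tlr2, which moved in the opposite direction to Tlr8 and Tlr13 in both culture comparisons, and for the latter pair. RefSeq (GRCm38.p6) gave 10 start sites for 8 of the 10 receptors, and the 250 bases before each were searched on both strands for 6 motifs. GAGGAA is a core bound by PU.1 and other ETS factors. The GC box was searched as GGGCGG. The TATA box was searched as TATAAA. The AP-1 site was searched as TGACTCA. The interferon-stimulated response element was searched as a pair of GAAA runs with any 2 bases between them, and the NF-κB site in a form that starts with GGG and ends with TTTCC after any 2 bases. Capitals mark matches to any of these, and overlapping matches run together.
Tlr2, chr3:83841609-83841858, minus strand: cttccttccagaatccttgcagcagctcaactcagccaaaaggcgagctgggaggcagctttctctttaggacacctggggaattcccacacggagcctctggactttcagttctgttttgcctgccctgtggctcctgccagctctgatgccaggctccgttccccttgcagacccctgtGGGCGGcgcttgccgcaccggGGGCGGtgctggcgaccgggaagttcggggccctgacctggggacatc
Tlr8, chrX:167264330-167264579, minus strand: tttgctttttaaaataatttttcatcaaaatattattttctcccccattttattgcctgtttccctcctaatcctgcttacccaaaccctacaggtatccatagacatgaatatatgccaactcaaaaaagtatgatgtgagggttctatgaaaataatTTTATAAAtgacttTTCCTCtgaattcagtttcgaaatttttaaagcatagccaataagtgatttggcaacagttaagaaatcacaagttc
Tlr13, chrX:106143025-106143274, plus strand: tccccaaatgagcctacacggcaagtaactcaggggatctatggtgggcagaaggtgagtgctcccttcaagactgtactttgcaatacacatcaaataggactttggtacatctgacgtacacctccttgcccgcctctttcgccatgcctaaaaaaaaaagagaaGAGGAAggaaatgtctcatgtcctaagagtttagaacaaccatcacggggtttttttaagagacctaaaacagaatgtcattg

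The Tlr2 window was 62.8% G and C with 11 CpG dinucleotides and held 2 matches to the GC box, which was found in 32.7% of all 32851 promoters in the table. The Tlr8 window was 31.2% G and C with 1 CpG. It held TATAAA on both strands in 1 overlapping stretch and GAGGAA on the reverse strand. Of all promoters 12.4% held TATAAA and 23.3% held GAGGAA on either strand. The Tlr13 window held GAGGAA as well, as did windows of Tlr1 and Tlr9. The GC box was also found in the Tlr5 window and TATAAA in a window of Tlr6. Each of the other motifs was found in a window of only 1 receptor, with the interferon-stimulated response element in Tlr6 (2.98% of all promoters), TGACTCA in Tlr9 (4.46%) and the NF-κB form in Tlr3 (1.41%). A match describes these letters and does not show binding.

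The first question was how the receptors differ between cultured and freshly sorted newborn microglia. In NB_Control 7 of the 9 were called against NB_FACS. Tlr8, Tlr4, Tlr13 and Tlr3 were higher and Tlr2, Tlr9 and Tlr1 were lower, while Tlr5 and Tlr6 were not called. Of all 19555 genes 29.7% were called in this comparison, 15.8% higher and 13.9% lower. The arrays of NB_Control and NB_FACS did not overlap for the 7 called receptors, against 44.2% of all genes. The median log2 difference of the 9 receptors was 0.32, with a range from -3.12 for Tlr2 to 4.94 for Tlr8 (2.60 with normexp background correction), beside a median of 0.09 over all genes.

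The second question was what the cytokines change in culture. In NB_Stim 4 of the 9 were called against NB_Control, in a comparison in which 3.41% of all genes were called. Tlr2 was higher, where 1.4% of all genes were called higher, and Tlr4, Tlr8 and Tlr13 were lower, where 2% were. Each of these 4 moved against its culture difference, but the 2 comparisons share the NB_Control arrays and are not independent. The arrays did not overlap for 6 receptors, against 24% of all genes. The median difference of the 9 receptors was -0.86, beside -0.00 over all genes. In the main fit 6 of the 9 passed an unadjusted p under 0.05, beside 2969 of all 19555 genes. Cultured replicates 1 and 2 lay closer to each other than to replicate 3. When they were averaged to 1 sample, 0 of the 9 were called by limma. The adjusted p-values were then 0.0724 (Tlr2), 0.0943 (Tlr4), 0.0502 (Tlr8) and 0.169 (Tlr13). With Tukey's test after Benjamini-Hochberg adjustment 1 of the 9 was called. With slide as a block, Tlr2, Tlr4, Tlr8 and Tlr13 stayed called by limma. Tlr1 (adjusted p 0.0258) and Tlr6 (adjusted p 0.00652) were then called lower as well. The share of all genes called under these alternatives is not given here.

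Against NB_FACS, NB_Stim still differed in 6 of the 9 receptors, where 31.1% of all genes were called. Tlr8, Tlr3 and Tlr13 were higher (16% of all genes) and Tlr1, Tlr9 and Tlr2 lower (15.1%). The arrays did not overlap for 7 receptors, against 43.5% of all genes.

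**Figure D1:**
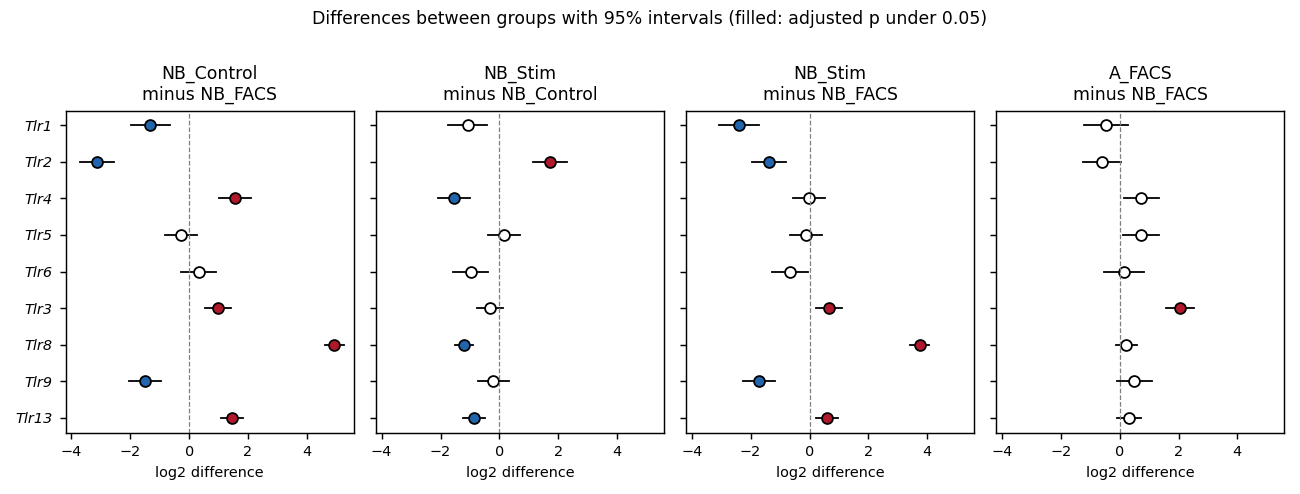
Log2 difference (x axis) of each of the 9 receptors (y axis) in 4 comparisons, 1 panel each; bars are 95% intervals of the fit, and filled points have an adjusted p under 0.05 (red higher, blue lower in the first-named group). Tlr8 lies farthest to the right in culture (4.94, or 2.60 with normexp correction; it was above background on 1 of 3 NB_FACS arrays), Tlr2 goes from -3.12 in culture to 1.73 with cytokines, and only Tlr3 is filled in the comparison of adult with newborn cells.

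Tlr2, the shared partner of the lipopeptide receptors, had the largest fall of the family. It lay at 14.92, 15.04 and 15.26 on the NB_FACS arrays and at 12.25, 12.15 and 11.47 on the NB_Control arrays. With cytokines it lay at 13.86, 13.58 and 13.61. The 3 newborn groups did not overlap, and every NB_Stim array stood between the other groups. The difference of NB_Control from NB_FACS was -3.12 (SE 0.26, 8.68-fold lower, adjusted p 2.13e-05), that of NB_Stim from NB_Control was 1.73 (SE 0.26, 3.31-fold higher, adjusted p 0.00624), and NB_Stim remained below NB_FACS by a log2 difference of -1.39 (adjusted p 0.00268). Within slides the culture difference was -2.78 on slide 1 and -3.79 on slide 2, and the cytokine difference 1.52 and 2.14.

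Tlr1, which pairs with Tlr2 to bind triacylated lipopeptides, fell in culture, and its cytokine difference was not called. Its levels were 10.43, 10.58 and 10.24 in NB_FACS, 9.44, 9.55 and 8.31 in NB_Control, and 8.18, 7.93 and 7.95 in NB_Stim. The groups descended in that order without overlap, with NB_Control replicate 3 far below the other NB_Control arrays. NB_Control was lower than NB_FACS by a log2 difference of -1.32 (SE 0.30, adjusted p 0.00775), and NB_Stim was lower than NB_FACS by -2.40 (SE 0.30, 5.27-fold, adjusted p 0.000245). The step from NB_Control to NB_Stim was -1.08 (adjusted p 0.0932, not called; -1.48 and adjusted p 0.00381 without NB_Control replicate 3, and adjusted p 0.0258 with slide as a block).

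Tlr6, the partner of Tlr2 for diacylated lipopeptides, was at 6.75, 6.65 and 6.35 in NB_FACS, 6.99, 7.16 and 6.55 in NB_Control and 6.34, 6.11 and 5.33 in NB_Stim. The sorted and control groups overlapped, and all NB_Stim arrays were below both. The culture difference was 0.32 (95% interval -0.28 to 0.92, adjusted p 0.433). With cytokines it was -0.98 (adjusted p 0.0927). Replicate numbers were taken as pairs of newborn arrays, which the titles do not state. With that block the cytokine difference of Tlr6 was called (adjusted p 0.0167), as was NB_Stim against NB_FACS (-0.66, adjusted p 0.0135 in place of 0.0932). Both were also called by limma with slide as a block (adjusted p 0.00652 and 0.00778) and with slide 1 arrays alone (0.0335 and 0.049). Within slides the cytokine difference was -0.85 and -1.22. Of the 3 lipopeptide receptor genes, Tlr2 was called higher in NB_Stim than in NB_Control, while Tlr1 and Tlr6 had negative differences that were not called.

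Tlr4, the lipopolysaccharide receptor, went the opposite way to Tlr2. It was at 8.83, 8.94 and 8.55 in NB_FACS, 10.21, 10.09 and 10.66 in NB_Control and 8.62, 8.40 and 9.29 in NB_Stim. All NB_Control arrays were above all others, and NB_Stim overlapped NB_FACS. NB_Control was higher than NB_FACS by 1.55 (SE 0.24, 2.92-fold, adjusted p 0.00095), and NB_Stim was lower than NB_Control by -1.55 (SE 0.24, 2.93-fold, adjusted p 0.00752). The difference of NB_Stim from NB_FACS was -0.01 (95% interval -0.55 to 0.54), made of -0.38 on slide 1 and 0.74 on slide 2. With slide 1 arrays alone it was called (adjusted p 0.046).

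Tlr5, the flagellin receptor, was not called in any newborn comparison. Its levels ran from 6.40 to 7.02 in NB_FACS, from 6.33 to 6.84 in NB_Control and from 6.26 to 7.04 in NB_Stim, and the 3 groups overlapped. The 95% intervals were -0.82 to 0.28 for culture and -0.39 to 0.71 for the cytokines.

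Among the endosomal receptors Tlr8, which senses RNA degradation products in human cells and responds less to them in the mouse, was higher in both cultures than in both sorted groups. It was at 3.35, 3.72 and 3.55 in NB_FACS, where it was well above background on 1 of 3 arrays, and at 3.76 and 3.77 in A_FACS. In NB_Control it was at 8.34, 8.58 and 8.50, and in NB_Stim at 7.14, 7.25 and 7.44. Both cultured groups stood apart from both sorted groups, and the cultured groups did not overlap. The fitted culture difference was 4.94 (SE 0.14, adjusted p 1.09e-07), and it was 4.93 on slide 1 and 4.95 on slide 2. With normexp background correction it was 2.60 (adjusted p 2.91e-08), and NB_Stim against NB_FACS was 1.65 in place of 3.74. With 1 of 3 NB_FACS arrays above background, the direction was the same under both corrections and the size was not settled. The cytokine difference was -1.20 (SE 0.14, 2.29-fold lower, adjusted p 0.00179).

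Tlr13, which binds bacterial ribosomal RNA, had the same order of groups. It was at 12.05, 11.98 and 12.17 in NB_FACS, 13.39, 13.28 and 13.88 in NB_Control and 12.54, 12.62 and 12.80 in NB_Stim. None of the newborn groups overlapped. The culture difference was 1.45 (SE 0.17, 2.73-fold, adjusted p 0.000155), the cytokine difference -0.86 (SE 0.17, adjusted p 0.0223) and NB_Stim against NB_FACS 0.59 (SE 0.17, adjusted p 0.0232). The cytokine call was lost without NB_Control replicate 1 (-0.92, adjusted p 0.0591), NB_Stim replicate 1 (-0.80, adjusted p 0.105) or NB_Stim replicate 2 (-0.84, adjusted p 0.0924), with only the groups compared in the fit (adjusted p 0.0928), with cultured replicates 1 and 2 averaged, and with Tukey's test after Benjamini-Hochberg (adjusted p 0.156). The call against NB_FACS was lost without NB_FACS replicate 1 (0.58) or 2 (0.55), without NB_Stim replicate 2 (0.60) or 3 (0.52), with 75th percentile scaling (0.38, adjusted p 0.148), with cultured replicates 1 and 2 averaged (0.62, adjusted p 0.0636) and with Tukey's test after Benjamini-Hochberg (adjusted p 0.112).

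Tlr9, the receptor for unmethylated CpG DNA, was lower in both cultures. It was at 7.47, 7.21 and 6.76 in NB_FACS, 5.77, 5.98 and 5.17 in NB_Control and 5.51, 5.38 and 5.41 in NB_Stim. All cultured arrays were below all sorted ones, and NB_Stim lay within the range of NB_Control. The differences from NB_FACS were -1.51 (SE 0.24, adjusted p 0.00103) and -1.71 (SE 0.24, adjusted p 0.000495). With normexp correction they were -0.90 and -0.98 and remained called. The cytokine difference was -0.20 (95% interval -0.74 to 0.33).

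Tlr3, the receptor for double-stranded RNA, was at 5.08, 4.90 and 5.01 in NB_FACS, 6.13, 6.19 and 5.58 in NB_Control and 5.83, 5.77 and 5.33 in NB_Stim as the mean of its 3 kept probes. The NB_FACS arrays were below the cultured ones, and the cultured groups overlapped. The culture difference was 0.97 (SE 0.20, adjusted p 0.00424) and that of NB_Stim from NB_FACS 0.65 (adjusted p 0.0312). The probes disagreed on these values. MMXS16348 gave a culture difference of 1.75 (adjusted p over probes 0.00222), but was above background on 1 of 3 NB_FACS arrays, whereas MMXS35195 gave 0.75 and MMXS39382, the brightest, gave 0.41, both not called. With the brightest probe alone the gene was not called in culture (adjusted p 0.294), nor with probes above background on all arrays (0.58, adjusted p 0.155) or with normexp correction (0.31, adjusted p 0.074). The difference of NB_Stim from NB_FACS was no longer called under 12 alternatives, including those without NB_FACS replicate 1 (0.69), 2 (0.60) or 3 (0.65) and without NB_Stim replicate 1 (0.55) or 2 (0.58). The fourth probe, MMXS14645, was above background on 1 array in all and was not kept.

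**Figure D2:**
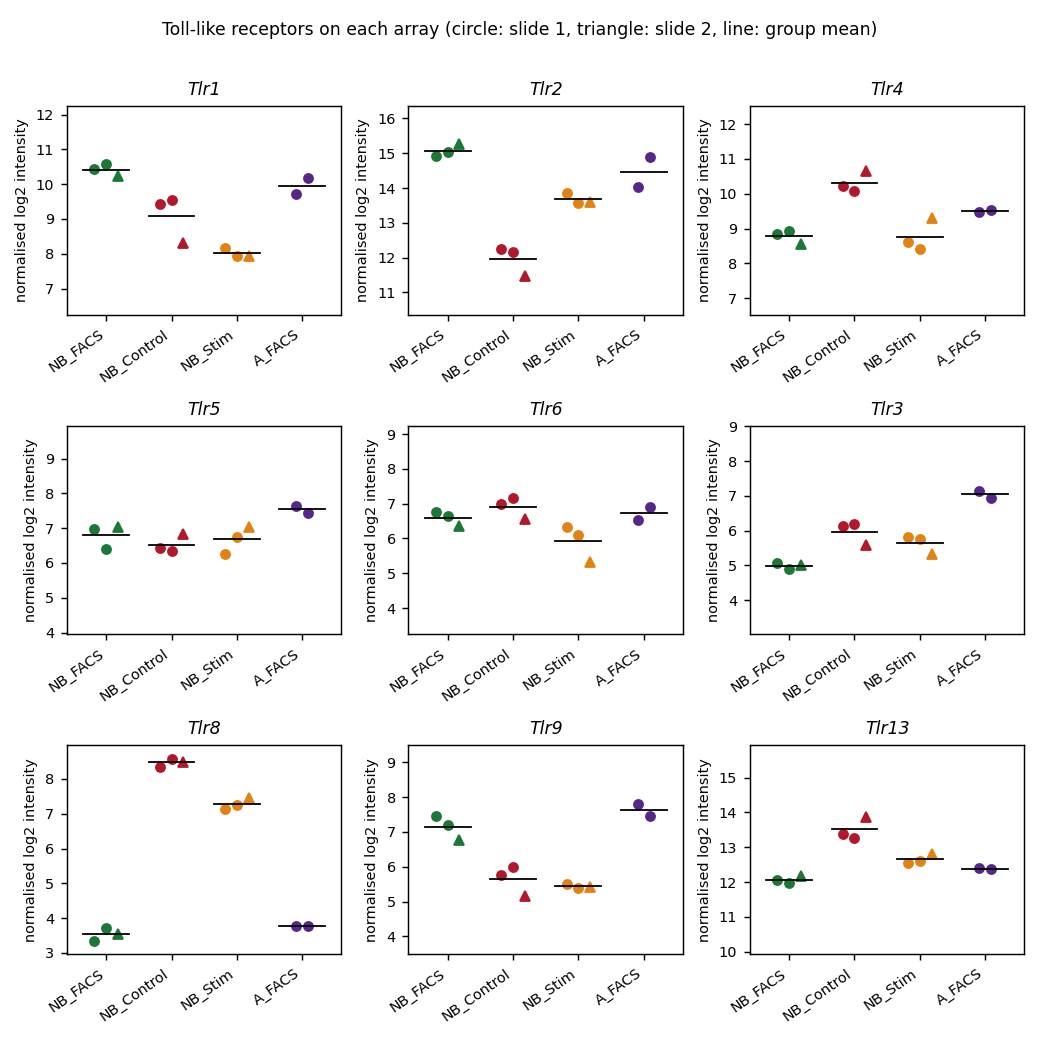
Normalised log2 intensity (y axis, spanning 6 log2 units in every panel) of each receptor on each array in the 4 groups (x axis); circles are slide 1, triangles slide 2 and lines group means. NB_Control stands highest for Tlr4, Tlr8 and Tlr13 and lowest for Tlr2, and A_FACS stands highest for Tlr3.

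The third question was whether adult and newborn sorted microglia differ. In A_FACS 1 of the 9 receptors was called against NB_FACS, where 22.7% of all genes were called, 9.75% higher and 12.9% lower. The arrays did not overlap for 8 receptors, against 51.2% of all genes, with 2 adult arrays against 3. Tlr3 was at 7.14 and 6.95 in A_FACS, above every newborn array, with a difference of 2.05 from NB_FACS (SE 0.22, 4.13-fold, adjusted p 0.00023). Here the probes agreed in direction, and MMXS16348 (3.09), MMXS35195 (1.87) and MMXS39382 (1.19) were each called. The size was 0.96 with normexp correction and 1.19 with the brightest probe alone, called in both. A_FACS was also above NB_Control (1.08, adjusted p 0.00336) and NB_Stim (1.40, adjusted p 0.000824).

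**Figure D3:**
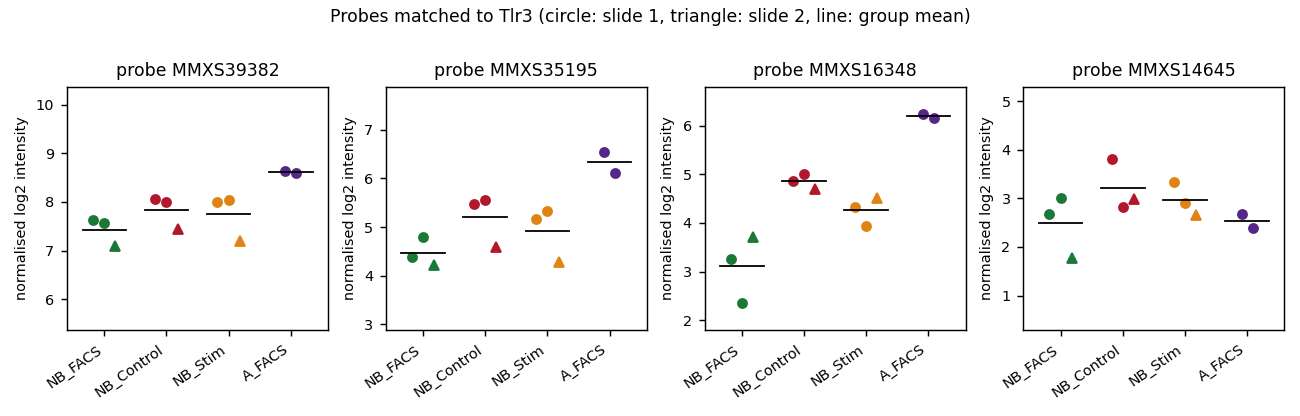
Normalised log2 intensity (y axis, spanning 5 log2 units) of the 4 probes matched to Tlr3 on each array in the 4 groups (x axis); circles are slide 1, triangles slide 2 and lines group means. A_FACS is highest for 3 probes, by 3.09, 1.87 and 1.19 over NB_FACS, and the dim probe MMXS14645 shows no such order.

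The other adult differences did not pass the test. Tlr4 was at 9.49 and 9.54 in A_FACS (difference 0.74, 95% interval 0.14 to 1.34, adjusted p 0.0783) and Tlr5 at 7.64 and 7.44 (0.74, 95% interval 0.12 to 1.35, adjusted p 0.0838). With slide as a block 4 of the 9 were called, all higher in A_FACS, namely Tlr3, Tlr4 (0.85, adjusted p 0.0283), Tlr5 (0.89, adjusted p 0.0125) and Tlr13 (0.42, adjusted p 0.0343). With slide 1 arrays alone, which hold both adult arrays and 2 of the 3 NB_FACS arrays, the same 4 were called. Without NB_Stim replicate 3 Tlr4 was called as well (adjusted p 0.0256). The share of all genes called in these fits is not given here, so the rise from 1 to 4 is not a result about the receptors. Tlr2 was at 14.04 and 14.90 in A_FACS (difference -0.61, 95% interval -1.26 to 0.05), and it was called with 75th percentile scaling (-0.92, adjusted p 0.0346). The differences of Tlr1 (-0.48), Tlr9 (0.50) and Tlr6 (0.14) had adjusted p-values of 0.35, 0.221 and 0.793. Tlr8 was at 3.76 and 3.77 in A_FACS, with a difference of 0.23 (95% interval -0.13 to 0.58).

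Adult sorted cells were also set against the cultures. Against NB_Control 7 of the 9 receptors were called (40.8% of all genes), with Tlr2 (2.51), Tlr9 (2.00), Tlr3 (1.08) and Tlr5 (1.01) higher in A_FACS (17.7% of all genes) and Tlr8 (-4.71), Tlr13 (-1.13) and Tlr4 (-0.81) lower (23.2%). The arrays did not overlap for 8 receptors, against 66.4% of all genes. Against NB_Stim 5 were called (40.2%), with Tlr9 (2.21), Tlr1 (1.92), Tlr3 (1.40) and Tlr5 (0.85) higher (17.5%) and Tlr8 (-3.51) lower (22.8%). The arrays did not overlap for 9 receptors, against 63% of all genes. Tlr8 was well above background on both A_FACS arrays but lay at 3.76 and 3.77, close to its NB_FACS levels (3.35 to 3.72). Its sizes here are therefore not settled either. Age and sex differ in these comparisons as well as culture.

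The order of the 4 groups differed between receptors. For Tlr8 it was NB_Control, NB_Stim, A_FACS and NB_FACS, with the last pair not distinguished (adjusted p 0.356). Tlr13 had the same order, with NB_Stim and A_FACS (adjusted p 0.281) and A_FACS and NB_FACS (adjusted p 0.262) not distinguished. For Tlr4, NB_Control led A_FACS (0.81, adjusted p 0.0372), and the lower neighbours were not distinguished. For Tlr2 the order was NB_FACS, A_FACS, NB_Stim and NB_Control, in which the last step was called. For Tlr9, A_FACS and NB_FACS (adjusted p 0.221) lay above NB_Control and NB_Stim (adjusted p 0.807). For Tlr1, Tlr5 and Tlr6 no step between neighbours was called.

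Markers of other cell types moved with culture as well. Over 5 fibroblast markers the summed intensity ran from 622 to 808 in NB_FACS, from 10300 to 14600 in NB_Control and from 4810 to 13500 in NB_Stim, and all 5 were above background on every cultured array. Over 9 markers of border macrophages, the macrophages of the meninges and vessels, it ran from 12500 to 14900 in NB_FACS, from 45700 to 89700 in NB_Control, from 20500 to 34100 in NB_Stim and from 1280 to 1660 in A_FACS. That list was split in NB_Control, with Ms4a7 (6.66), Pf4 (4.71), Siglec1 and Stab1 called higher and Lyve1, Cbr2 (-3.15) and Cd163 called lower. Lyve1 was well above background on 0 of 3 NB_Control arrays and Cd163 on 1 of 3, so no size is given for them. The microglial markers summed to between 192000 and 210000 in NB_FACS, 77300 and 91200 in NB_Control, 177000 and 184000 in NB_Stim and 312000 and 327000 in A_FACS. Endothelial markers fell from between 4710 and 6470 in NB_FACS to between 1020 and 1130 in NB_Control. Monocyte markers ran from 267 to 436 in NB_FACS, 190 to 363 in NB_Control and 1570 to 3430 in A_FACS. Astrocyte markers ran from 2000 to 2120 in NB_FACS, 3380 to 3550 in NB_Control and 2880 to 3660 in NB_Stim. Oligodendrocyte lineage markers ran from 409 to 435, 688 to 1150 and 1150 to 3820 in the same groups, and neuronal ones from 4340 to 4490, 2110 to 2530 and 1610 to 2950. Neutrophil markers, of which 6 of 7 had a probe, ranged from 473 to 6680 within NB_FACS and from 1090 to 1350 in NB_Control, and the 8 markers of dendritic and B cells summed to between 236 and 344 on all arrays. The part of these cells in the receptor differences was not tested.

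**Figure D4:**
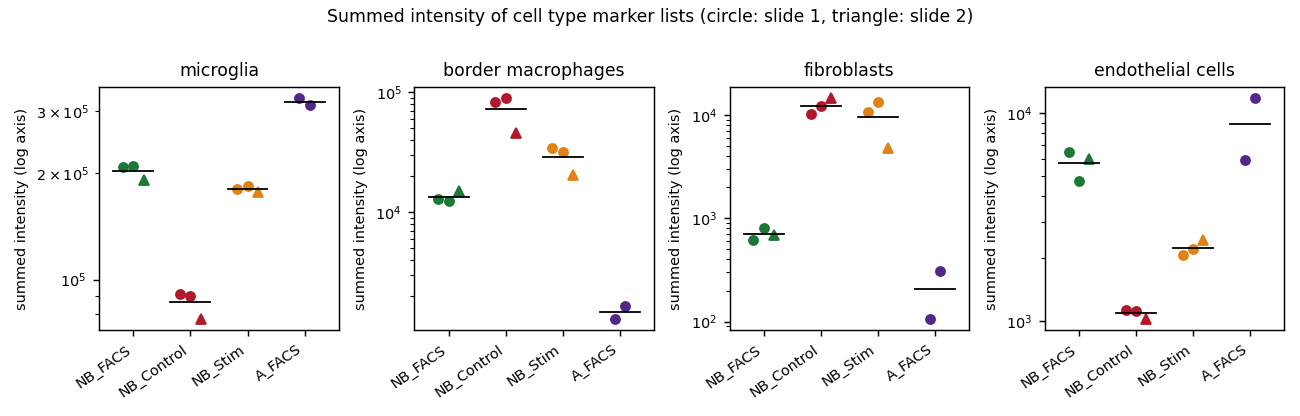
Summed normalised intensity (y axis, log scale, arbitrary units) of 4 marker lists on each array in the 4 groups (x axis); circles are slide 1, triangles slide 2 and lines group means. Border macrophage markers are highest in NB_Control (45700 to 89700), where microglial markers are lowest (77300 to 91200).

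The other genes of the pathway were taken as 84 genes in 9 lists, of which 79 were tested. In NB_Control 49 of the 79 were called against NB_FACS, 14 higher and 35 lower, beside the 29.7% of all genes. The NB_FACS cells were lysed straight after digestion and sorting, and the part of that step in these differences was not tested. With cytokines 12 were called (3 higher, 9 lower), beside 3.41%. In NB_Stim against NB_FACS 49 were called (11 higher, 38 lower), beside 31.1% of all genes.  In A_FACS 19 were called (14 higher, 5 lower), beside 22.7%. The cytokine count was 6 without NB_FACS replicate 2, NB_Control replicate 1, NB_Control replicate 2 or NB_Stim replicate 2 and 5 without NB_Stim replicate 1, and the adult count was 4 without A_FACS replicate 1.

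**Figure D5:**
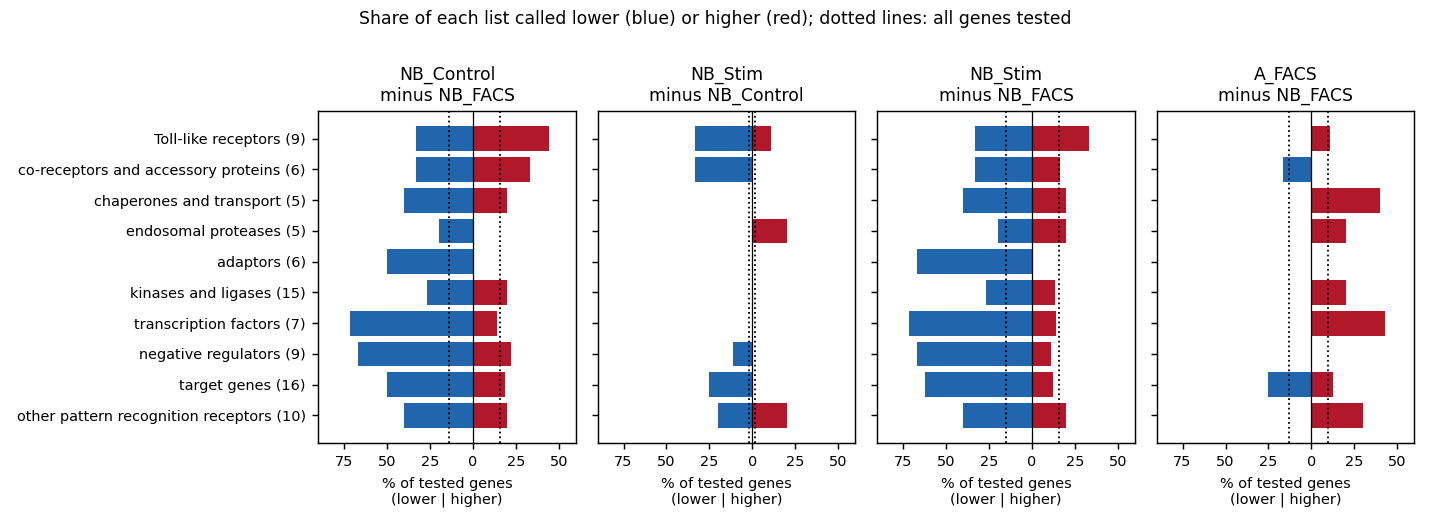
Percentage of the tested genes of each list (y axis, number tested in brackets) that were called lower (blue, to the left) or higher (red, to the right) in 4 comparisons, with dotted lines for all genes tested. In NB_Control the blue bars of the transcription factors (5 of 7) and negative regulators (6 of 9) are the longest.

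Of 6 co-receptors and accessory proteins, 4 were called in culture, 2 higher and 2 lower, where 15.8% of all genes were called higher and 13.9% lower. Ly96, which encodes the lipopolysaccharide-binding partner of Tlr4, was at 7.09, 7.44 and 7.57 in NB_FACS, 8.68, 8.98 and 8.93 in NB_Control and 7.81, 7.47 and 7.82 in NB_Stim. Like Tlr4 it was highest on all NB_Control arrays, with a culture difference of 1.49 (adjusted p 0.000128) and a cytokine difference of -1.16 (adjusted p 0.00471). Cd36, a scavenger receptor that assists Tlr2, rose by 4.36 (adjusted p 2.57e-06) in culture and was lower by -3.18 (adjusted p 0.000209) with cytokines. Cd14, which passes lipopolysaccharide to Tlr4, was not called (0.20 and -0.06), and the same held for Ly86 (-0.59 and 0.96), which pairs with Cd180. Cd180, a Toll-like receptor homologue, fell by 1.44 in culture (adjusted p 0.000662), and Lbp, the serum carrier of lipopolysaccharide, was also lower (-2.06, adjusted p 0.0495), above background on 2 of 3 NB_Control arrays. In A_FACS 1 of the 6 was called, Cd36 (-0.97, adjusted p 0.0345), a share near the 22.7% of all genes.

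Of 5 chaperone and transport genes, 1 rose and 2 fell in culture (15.8% and 13.9% of all genes). Unc93b1, which carries the endosomal receptors to their compartment, fell by 0.74 in NB_Control (adjusted p 0.0168) and by 0.91 in NB_Stim (adjusted p 0.00567) against NB_FACS. Slc15a4, an endolysosomal transporter needed for endosomal receptor signalling, fell by 0.83 (adjusted p 0.00226) and Cnpy4 rose by 0.87 (adjusted p 0.00391) in culture. The folding chaperones Hsp90b1 (-0.23) and Cnpy3 (0.06) were not called there, but Hsp90b1 was higher in A_FACS (0.77, adjusted p 0.0145), as was Slc15a4 (0.63, adjusted p 0.0243). No gene of this list was called with cytokines by limma, where 3.41% of all genes were called. At an unadjusted p under 0.05 there was 1, beside 2969 of all 19555 genes. Of 5 endosomal proteases, which trim these receptors, 1 was called in culture (29.7% of all genes). Lgmn fell by 1.28 (adjusted p 0.000468), and Ctss was higher with cytokines (0.60, adjusted p 0.045) and in A_FACS (0.81, adjusted p 0.00446).

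Of 6 adaptors, 3 fell in culture and 0 rose, beside 13.9% and 15.8% of all genes. Ticam1, which encodes the adaptor TRIF used by Tlr3 and Tlr4, fell from 12.20, 11.95 and 11.72 to 10.23, 9.97 and 10.22 (difference -1.82, adjusted p 2.17e-05). Ticam2, its bridge to Tlr4, fell by 0.53 (adjusted p 0.0184). Myd88, the adaptor of nearly all receptors of the family, fell by 0.50 in NB_Control (adjusted p 0.0416) and by 1.08 in NB_Stim (adjusted p 0.000742), while Tirap had a difference of 0.04 in culture. No adaptor was called with cytokines by limma, where 3.41% of all genes were called. At an unadjusted p under 0.05 there were 3, beside 2969 of all 19555 genes.

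Of 15 kinases and ligases, 3 rose and 4 fell in culture, beside 15.8% and 13.9% of all genes. Irak4, the kinase nearest to Myd88, rose by 1.37 (adjusted p 0.000599), and Ikbkg (2.20, adjusted p 2.59e-05) and Ikbke (1.51, adjusted p 0.00974), of the IκB kinase family, rose too. Peli1, a ubiquitin ligase of the pathway, fell by 1.26 (adjusted p 0.000482), and it was higher in A_FACS (0.64, adjusted p 0.0435), as was the kinase Chuk (0.63, adjusted p 0.0262). Among 7 transcription factors 5 fell and 1 rose, beside the same shares. The NF-κB subunits Rel (-2.60, adjusted p 0.000228), Nfkb1 (-2.45, adjusted p 0.00011), Nfkb2, Relb and Rela fell, and Irf7, an interferon regulatory factor, rose by 1.89 (adjusted p 0.000716). Rel (1.46, adjusted p 0.0165) and Rela (0.79, adjusted p 0.0144) were higher in A_FACS than in NB_FACS.

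Of 9 negative regulators, 6 fell and 2 rose in culture, beside 13.9% and 15.8% of all genes. Tnfaip3, which encodes the ubiquitin-editing enzyme A20, fell by 4.13 (adjusted p 0.000116) and Nfkbia, the inhibitor of NF-κB, fell by 2.17 (adjusted p 3.05e-06). Irak3, which holds back signalling from Myd88, was at 7.18, 7.39 and 7.59 in NB_FACS, 8.30, 8.57 and 8.34 in NB_Control and 6.95, 7.21 and 7.94 in NB_Stim. It was highest on the NB_Control arrays, with differences of 1.02 (adjusted p 0.00886) and -1.04 (adjusted p 0.046).

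Of 16 target genes, 8 fell and 3 rose in culture, beside 13.9% and 15.8% of all genes. The chemokine Cxcl10 fell by 7.31 (adjusted p 2.01e-06) and Tnf by 4.05 (adjusted p 1.59e-07), while Il6 was at 5.50, 5.78 and 6.12 in NB_FACS, 7.86, 8.11 and 8.34 in NB_Control and 5.16, 4.77 and 5.82 in NB_Stim. Il6 was higher on all NB_Control arrays than on any other newborn array, with differences of 2.30 (adjusted p 0.000216) and -2.85 (adjusted p 0.000601). Ccl2 was lower with cytokines as well (-2.40, adjusted p 0.031), and Ccl3 was lower in NB_Stim than in NB_FACS (-5.24, adjusted p 3.45e-07). In A_FACS the neutrophil attractant Cxcl2 was lower (-2.75, adjusted p 0.00398) and Il6 higher (2.75, adjusted p 0.000325).

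Of 10 other pattern recognition receptors, 2 rose and 4 fell in culture, beside 15.8% and 13.9% of all genes. Sting1, the adaptor of cytosolic DNA sensing, fell by 2.56 in culture (adjusted p 5.86e-05) and was higher with cytokines by 2.38 (adjusted p 0.000923). Ddx58, the cytosolic RNA sensor RIG-I, did the reverse (2.13, adjusted p 1.82e-05, and -1.04, adjusted p 0.0103), and it was also higher in A_FACS than in NB_FACS (1.26, adjusted p 0.00157). The DNA sensor Cgas was lower in NB_Stim than in NB_FACS (-1.52, adjusted p 0.000819), and Nlrp3, an inflammasome sensor, was higher in A_FACS (2.56, adjusted p 0.00573). The mouse receptors Tlr11 and Tlr12 were not called in any of the 4 comparisons. Tlr11 was above background on 1 array of each culture and on 2 arrays of each sorted group, and Tlr12 differed by 0.05 in culture and 0.03 with cytokines.

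As a description over the 11 arrays, which fall into 4 groups, the genes most like each called receptor by Pearson correlation were Slc41a2 (0.994) and Mmp3 (0.992) for Tlr8, Myo1f (0.984) and Gsta3 (0.982) for Tlr13, Kitl (0.948) and Evi2 (0.945) for Tlr4, and Sh2d5 (0.965) and Lsp1 (0.964) for Tlr2. For Tlr1 they were Gm15706 (0.974) and Gmfg (0.97), for Tlr9 Snord69 (0.992) and Sin3a (0.989), and for Tlr3 Pttg1 (0.976) and Cyp4f17 (0.97). Among the receptors themselves Tlr2 ran opposite to Tlr13 (-0.97) and Tlr8 (-0.90), Tlr9 opposite to Tlr8 (-0.91), and Tlr1 with Tlr9 (0.86). All of these values share the group differences described above.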

How the data were processed

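The authors hybridised Cy3-labelled RNA of 11 samples to single-colour arrays and deposited scanner files of Agilent Feature Extraction (version 11 per the labels), with 1 background-subtracted intensity per spot and flags for spots well above background. The deposited value table holds the same intensity values. The members and gene lists were chosen with earlier results of these data known. Groups came from sample titles. Spots with outlier flags were left out, log2 intensities were quantile normalised in limma 3.58.1 (R 4.3.3), and a probe was kept if some group had it well above background on all its arrays. Probes were named through RefSeq accessions (GRCm38.p6 table, names only) and averaged to genes. Each gene was fitted with 1 mean per group over all 11 arrays, comparisons were tested by limma's two-sided moderated test with Benjamini-Hochberg adjustment, and 95% intervals used 9.69 degrees of freedom. The fit was tested on simulated data. Figures were drawn with matplotlib 3.10.9.

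Named genes were the members, 14 fixed partners (Traf6, like Irf5, Irf8, Il12b and Clec7a, was not analysed here), up to 2 called genes with the largest difference per list and comparison, and the 2 genes most correlated with each called member. Further list and marker genes were named after their values were seen. Replicate numbers come from the titles. Deviations from the group means correlated between same-numbered newborn arrays in all 9 pairs (0.112 to 0.489), so the numbers were taken as pairs. Replicate 3 is also the slide 2 replicate. Replicates 1 and 2 with unmatched numbers correlated over a similar range (0.185 to 0.364), so the pairing is not settled. Adult arrays share numbers with newborn ones by name only. Alternatives changed scaling, background correction, filter, probe choice, blocks, test and arrays used. The number of arrays limits the precision.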

Additional observations from a re-analysis of the deposited data

How the results depend on the processing

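Of 860 alternative values of the 9 receptors, 793 kept their direction and side of the threshold, 34 lost a call, 22 gained one and 11 changed sign, all 11 in differences that were not called. The 1 receptor called in A_FACS against NB_FACS became 2 with 75th percentile scaling or normexp correction, 3 with the replicate block, and 4 when slide was the block or slide 1 arrays were used alone. Leaving out 1 array gave 1 to 2. The 19 pathway genes of that comparison became 29 on slide 1, 8 with only the groups compared, 8 at a log2 difference of at least 1, 4 with Tukey's test after Benjamini-Hochberg and 11 with cultured replicates 1 and 2 averaged, and 4 to 23 without 1 array. For NB_Stim against NB_Control the 4 receptors became 1 with Tukey's test after adjustment and 0 with those replicates averaged, and 3 to 5 without 1 array. Tlr1 and Tlr6 gained calls there by limma with slide as a block (adjusted p 0.0258 and 0.00652). The same held on slide 1 arrays alone (0.00814 and 0.0335). The 12 pathway genes became 6 with only the groups compared, 4 with Tukey's test, 4 averaged and 5 to 11 without 1 array. The 7 receptors called in NB_Control against NB_FACS stayed at 7 without any 1 array, and Tlr1 lost its call there with Tukey's test (adjusted p 0.0944). Signs turned for Tlr4 in NB_Stim against NB_FACS with normexp (0.01) and averaging (0.12), ranging from -0.27 to 0.18 without 1 array, and for Tlr6 in A_FACS against NB_FACS with either block (-0.06 in both), ranging from -0.04 to 0.31. For Tlr5 the range without 1 array was -0.32 to 0.10 in NB_Stim against NB_FACS and -0.02 to 0.37 against NB_Control. With the replicate block as a pairing, 7, 5, 7 and 3 receptors were called in the culture, cytokine, NB_Stim against NB_FACS and adult comparisons, and 51, 12, 54 and 24 pathway genes. Among newborn groups the block changed the call of Tlr6 and of no other receptor, and for the adult arrays, which share numbers by name only, it added Tlr4 (0.85, adjusted p 0.0418) and Tlr5 (0.89, adjusted p 0.0191). Tlr8 was not tested when probes had to be well above background on all arrays. Scaling moved the median of all genes by under 0.1. The shares of all genes called under these alternatives are not given here, so the changed counts are not a result about the receptors or the pathway. The causes of these changes were not tested.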
